A study of Mus musculus with 2 samples.

Results

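Receptors for interleukins and haematopoietic cytokines were examined in cultured retinal pigment epithelium (RPE) of the mouse, a sheet of pigmented cells that supports the photoreceptors. The set was a list of 43 receptor genes, and every probe set annotated to 1 of them was taken. Probe sets naming a gene alone were found for 40 of the 43, among 18193 genes on the array, with 77 probe sets in all. Il1rl1 (the IL-33 receptor ST2), Il2rg (the common gamma chain) and Il11ra1 (an IL-11 receptor chain) were matched by no probe set of the annotation used and were not analysed here. A further probe set named Csf2rb together with Csf2rb2 and was left out, with signals of 2.1 and 17.4.

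The series has 2 primary cultures, each measured on 1 oligonucleotide array: untreated RPE, and RPE that received 100 U/ml of interferon gamma (IFNg), a cytokine of activated lymphocytes, over 24 h. Both were grown in DMEM with 20% serum, were described as 95% cytokeratin positive at day 14, and spent a night in serum-free medium before RNA was taken. How that night overlapped with the IFNg treatment, the mouse strain and the number of animals behind a culture were not stated in the labels. With 1 array per group no test is possible, so higher and lower describe these 2 arrays.

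Each array gave 45101 probe-set signals, with medians of 20.1 (untreated) and 20.8 (IFNg). Signals under 20.4, the pooled median, were raised to it before log2 was taken, and a gene over this floor on either array counted as measured. Where 1 array lay at the floor, the ratio is a bound, given as "at least". Of 13 RPE markers, 9 were above the floor, among them Otx2 and the tyrosinase gene Tyr, but Rpe65 (5 and 1.1), Best1 and Rgr, which define mature RPE, were at it on both arrays. All 9 fibroblast markers were above it, with summed signals of 57432.9 and 52674. Of 20 leukocyte markers 11 were above it, with sums of 815.4 and 459.3. The sums for the RPE markers were 3588.2 and 4111.8. Signals of different genes are not comparable, so these sums do not rank the cell types. The lymphocyte genes Cd3e, Cd3g, Cd79a and Ms4a1 and the NK cell gene Ncr1 were at the floor on both arrays, and Ptprc, the gene for CD45, had signals of 20.8 and 7. Of the monocyte and macrophage genes, Csf1r (202.8 and 77.5), Cd68 (139.6 and 87.6) and Cd14 (117.3 and 89.8) were above the floor on both arrays. So were Tyrobp (56.3 and 31.4) and Adgre1 (51.3 and 44.8), while Itgam (2.1 and 5) was at the floor on both.

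Most of these receptors carry no kinase of their own. Chains of the class I and class II cytokine receptor families pair on ligand binding and signal through bound Janus kinases and STAT factors, whereas IL-1 family receptors signal through TIR domains and MyD88, and IL-17 receptors through the related SEFIR domain and the adaptor Act1. A ligand-specific chain usually shares its partner with other cytokines. The shared chains are gp130 (Il6st) for the IL-6 family, the common gamma chain for IL-2, IL-4, IL-7, IL-9, IL-15 and IL-21, the common beta chain (Csf2rb) for IL-3, IL-5 and GM-CSF, and IL10RB for several IL-10 relatives. Soluble or decoy forms, such as IL1R2 and IL13RA2, hold ligand without passing on the usual signal.

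Of the 40 receptor genes, 28 were above the floor on either array, and 21 on both. Among the 28, 4 were at least 2-fold higher with IFNg: Il13ra1, Il15ra, Lifr and, as a bound, Il12rb1. In all 12753 genes above the floor, 8.81% were at least 2-fold higher, against 14.3% of the receptors. The interleukin-17 receptor chain Il17re was the only receptor at least 2-fold lower, which is 3.57% of the 28 against 4.48% of all genes. Of the other 23, 17 were above the floor on both arrays and lay within 2-fold. For 6 (Il21r, Il7r, Il6ra, Il27ra, Csf2rb and Il12rb2) 1 array was at the floor and the bound was under 2-fold, which leaves the size of the difference unknown. The shares rest on 4 genes and 1 gene and are no result about receptors as a class. In RNA from a whole culture, fewer cells of a type and less RNA per cell cannot be told apart.

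The median log2 ratio of the 28 receptors was 0.06, beside -0.12 for all measured genes. For the 21 receptors above the floor on both arrays it was 0.09, beside -0.13 for 10447 genes. The sign of the receptor median is not settled, since it was -0.02 after scaling to a common 75th percentile and -0.02 after quantile normalization. Without replicates, disagreement between probe sets is the one measure of spread, and it is technical. Where several probe sets of a gene had both arrays above the floor, the SD of their log2 ratios was 0.44 (4422 genes), and it was also 0.44 for the 9 receptors concerned.

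**Figure D1:**
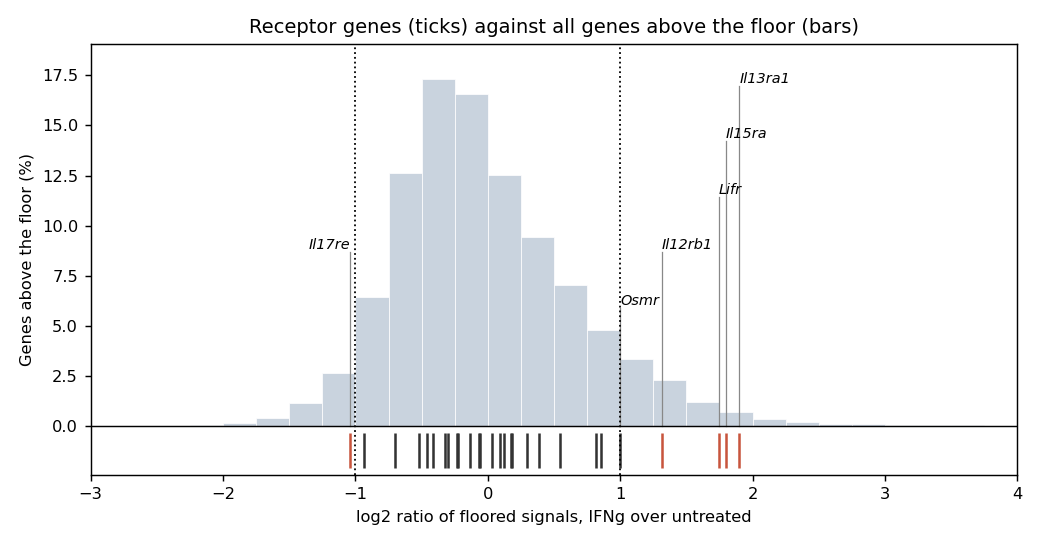
Distribution of log2 ratios (IFNg over untreated, floored signals, x axis) for all genes above the floor, as bars in percent of genes (y axis), with 34 genes beyond the plotted range. The 28 receptor genes are ticks under the axis, coloured where they pass 2-fold: 4 lie beyond the upper dotted line and 1 beyond the lower, with Osmr at 1.00 on the upper line.

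Promoter windows were looked at for the receptors that moved most, and for the neighbours Lifr and Osmr, whose probe sets moved together. RefSeq (assembly GRCm38.p6) gave 48 windows for 36 of the 43 listed genes, each from 250 bases before a gene start to 50 after it. Letters searched on both strands were TTCNNNGAA (the GAS element), GAAANN followed by GAAA (the core of the interferon-stimulated response element, ISRE) and GGG and CC with NNNNN between them (a loose kappaB element). In the first 3 windows capitals mark the kappaB letters. These 3 were picked by name among windows that hold such letters. Their genes had probe sets above the floor that all pointed the same way, as did Il15ra, Il4ra, Il17ra and Il17re. The last 2 are shown because they hold interferon-type letters. The window of Il17re, a receptor past 2-fold, held none of the letters searched and is not shown. In the Il15ra window the capitals mark GAAANNGAA, a shortened ISRE core that was added after the sequence was seen. In the Il1rap window they mark the full core, which contains the shortened one. The windows, 5' to 3' on the strand of the gene, are chr15:7129322-7129621 (plus) for Lifr, chr15:6874264-6874563 (minus) for Osmr, chrX:36111858-36112157 (plus) for Il13ra1, chr2:11705462-11705761 (plus) for Il15ra and chr16:26581455-26581754 (plus) for Il1rap.
Lifr: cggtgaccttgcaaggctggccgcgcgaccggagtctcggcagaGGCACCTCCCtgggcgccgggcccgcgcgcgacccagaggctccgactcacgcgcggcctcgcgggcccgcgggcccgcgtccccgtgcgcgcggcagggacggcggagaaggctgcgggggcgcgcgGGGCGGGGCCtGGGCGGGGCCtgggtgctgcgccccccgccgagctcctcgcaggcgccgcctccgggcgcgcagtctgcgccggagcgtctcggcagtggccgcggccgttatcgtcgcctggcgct
Osmr: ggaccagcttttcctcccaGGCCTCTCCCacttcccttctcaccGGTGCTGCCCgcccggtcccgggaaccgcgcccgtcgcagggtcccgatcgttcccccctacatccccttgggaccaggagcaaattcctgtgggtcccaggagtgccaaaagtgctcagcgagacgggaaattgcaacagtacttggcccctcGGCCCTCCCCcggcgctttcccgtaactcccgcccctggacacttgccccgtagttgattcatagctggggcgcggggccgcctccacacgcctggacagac
Il13ra1: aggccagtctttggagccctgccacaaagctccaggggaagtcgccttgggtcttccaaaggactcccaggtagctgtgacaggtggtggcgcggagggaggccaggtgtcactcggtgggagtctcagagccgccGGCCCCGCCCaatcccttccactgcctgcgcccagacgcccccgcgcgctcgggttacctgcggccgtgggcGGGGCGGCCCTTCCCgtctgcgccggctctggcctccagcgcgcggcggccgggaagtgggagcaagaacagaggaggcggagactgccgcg
Il15ra: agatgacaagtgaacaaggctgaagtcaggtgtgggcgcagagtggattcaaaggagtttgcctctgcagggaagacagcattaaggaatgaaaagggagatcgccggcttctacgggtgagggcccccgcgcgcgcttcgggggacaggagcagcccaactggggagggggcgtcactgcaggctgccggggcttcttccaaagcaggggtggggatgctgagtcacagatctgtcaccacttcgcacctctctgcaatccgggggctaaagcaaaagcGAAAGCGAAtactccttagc
Il1rap: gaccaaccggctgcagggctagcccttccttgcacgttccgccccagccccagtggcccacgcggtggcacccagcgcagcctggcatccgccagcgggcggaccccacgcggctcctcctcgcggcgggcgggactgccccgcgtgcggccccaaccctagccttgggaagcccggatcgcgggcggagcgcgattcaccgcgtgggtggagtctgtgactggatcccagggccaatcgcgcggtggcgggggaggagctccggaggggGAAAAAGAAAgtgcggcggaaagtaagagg

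The GAS letters were in none of the 6 windows of the receptors past 2-fold (4 of those 5 genes had a window). They were in 8.30% of all 32851 windows and in 5 of the 48 receptor windows (10.4%), those of Il12rb2, Il18r1, Il1r2, Il31ra and Il7r. The ISRE core was in 3.44% of all windows and in 1 of the 48 receptor windows (2.08%), that of Il1rap. The shortened core was in 8.56% of all windows and in 4 of the 48 receptor windows (8.33%), so it does not set receptor windows apart. Those 4 belong to Il15ra (both of its windows), Il1rap and Csf3r. The kappaB letters were in 50.8% of all windows and in 25 of the 48 receptor windows (52.1%), so they do not set receptor windows apart. The downstream pair of kappaB matches in Lifr also holds GGGCGG, the letters of a GC box. Each marked stretch in Il13ra1 holds them too, on 1 strand or the other. Such letters are a description of these windows and show no bound factor.

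Among the chains that pair with gp130, Lifr was the one past 2-fold. Lifr encodes the receptor chain for leukaemia inhibitory factor (LIF), cardiotrophin and, in a larger complex, ciliary neurotrophic factor. Its brightest probe set had a signal of 270.2 in untreated RPE and 906.8 with IFNg, a 3.36-fold difference (log2 ratio 1.75). The other 2 probe sets read 70.9 and 142.8 (log2 ratio 1.01), and 12.8 and 57 (at least 1.48). All 3 were higher with IFNg and past 2-fold.

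Osmr, the oncostatin M receptor chain, was 785.8 untreated and 1570.3 with IFNg by its brightest probe set. The log2 ratio was 0.9986, just under the 2-fold threshold. Its further probe sets gave log2 ratios of 0.80 (193.6 and 336.5) and, as a bound, at least 0.99 (17.3 and 40.4). All 3 were higher with IFNg, and the gene passed 2-fold after quantile normalization (1.04) and after a loess correction (1.15).

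Il6st, which encodes gp130, was above the floor in all 4 probe sets on both arrays, but these disagreed. The brightest read 1005.2 and 1469.1 (log2 ratio 0.55). Others gave 0.68 (484.2 and 775.7), 0.01 (434.5 and 437.5) and -0.22 (320.3 and 275.5). A direction for Il6st thus depends on the probe set.

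Other chains that join gp130 to bind single ligands were dim. Cntfr, the binding chain for ciliary neurotrophic factor, was 56.5 and 34.7 (log2 ratio -0.70), and its second probe set was at the floor on both arrays. Il6ra, the IL-6 binding chain, was 29.2 untreated and 14.9 with IFNg, at least 1.43-fold lower. Its other probe set, at 1.7 and 17.7, was at the floor on both arrays, so the reading rests on 1 dim probe set. Il27ra, the IL-27 chain, was 21.4 and 10.8, barely over the floor when untreated. Il31ra, which pairs with the oncostatin M receptor chain for IL-31, and Csf3r, the G-CSF receptor that acts as a pair of like chains, were at the floor on both arrays.

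Il12rb1, a chain of the IL-12 and IL-23 receptors best known from T and NK cells, had 1 probe set. It read 13.7 untreated and 50.8 with IFNg, at least 2.49-fold higher. Its partner Il12rb2, with signals of 15.7 and 22.2, only crossed the floor with IFNg (at least 1.09-fold). Among the T and NK cell markers, Cd3e, Cd3g, Ncr1 and Nkg7 were at the floor on both arrays and Cd2 had signals of 20.6 and 3. The part of such cells in the Il12rb1 value was not tested.

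**Figure D2:**
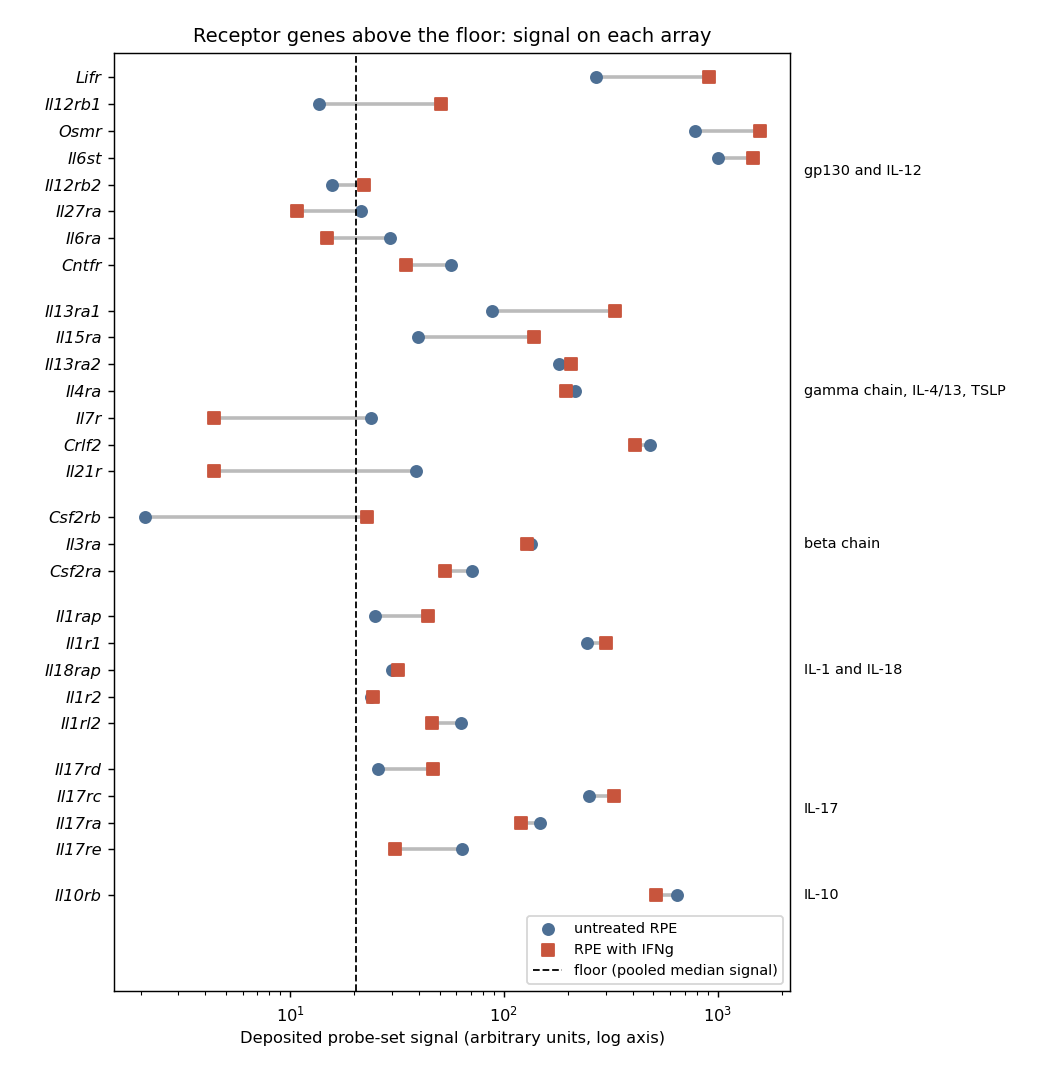
Deposited signal (x axis, log scale, arbitrary units) of the 28 receptor genes above the floor, by the probe set that stands for each gene, with 1 circle for the untreated and 1 square for the IFNg array, grouped by receptor family. Lifr, Il13ra1 and Il15ra show wide gaps with both points right of the dashed floor of 20.4, while Il7r, Il21r and Csf2rb cross it. Levels of different genes are not comparable on this scale.

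In the group of IL-4, IL-13 and gamma chain receptors, Il13ra1 had the highest ratio of the 21 receptors above the floor on both arrays. For the 7 receptors known only as bounds such a rank depends on the floor, and Csf2rb (log2 ratio at least 1.99) passed Il13ra1 with the floor at the 25th percentile. Il13ra1 encodes the chain that pairs with IL-4R alpha to bind IL-13 or IL-4 in non-haematopoietic cells. Its signals were 88.2 untreated and 329 with IFNg by the brightest probe set (3.73-fold, log2 ratio 1.90). Another 3 probe sets gave 88.6 and 271.8 (1.62), 72.3 and 205.3 (1.51), and 56.5 and 245 (2.12). All 4 had both arrays above the floor and passed 2-fold, and the last, at 7.7 and 16.6, was at the floor on both.

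The other chains of the IL-13 receptor lay within 2-fold. Il4ra was 214.8 untreated and 196.1 with IFNg (log2 ratio -0.13), with further probe sets at -0.47 (167.6 and 121.1) and, as a bound, -0.01. Il13ra2, the decoy receptor for IL-13, was 180.7 and 204.9 (0.18) in its single probe set. Crlf2, the receptor chain for thymic stromal lymphopoietin (TSLP), was 484.6 and 411.5 (-0.24), and Il7r, its partner and the IL-7 chain, was 23.8 and 4.4 (at least 1.17-fold lower).

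Il15ra, which binds IL-15 and presents it to neighbouring cells, was 39.6 untreated and 137.6 with IFNg (3.47-fold, log2 ratio 1.80). Its second probe set moved less, with 45.5 and 59.1 (0.38). Both were higher with IFNg, but only 1 passed 2-fold, and with the floor raised to the 75th percentile of all signals (86.6) the gene was at least 1.59-fold higher. Of the chains that signal for IL-2 and IL-15, Il2rb was at the floor in both probe sets and Il2rg was not analysed here. Il2ra, the IL-2 binding chain, was at the floor in both of its probe sets. Il9r was at the floor too. Il21r, a receptor of lymphocytes, had signals of 39 and 4.4 in 1 probe set, at least 1.91-fold lower with IFNg. Of the lymphocyte markers, Cd3e, Cd3g, Cd79a and Ms4a1 were at the floor on both arrays and Cd2 had signals of 20.6 and 3. Of 11 measured leukocyte markers, 3 were at least 2-fold lower with IFNg (27.3%, beside 4.48% of all genes) and 8 were not. That share rests on too few genes to be a result about the list. The part of leukocytes in the Il21r value was not tested.

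Both ligand-binding chains measured beside the common beta chain lay within 2-fold. Il3ra, the IL-3 binding chain, was 133.5 and 128.3 (log2 ratio -0.06). Csf2ra, the GM-CSF binding chain, was 70.7 and 53.1 (-0.41), with a second probe set at the floor on both arrays. The common chain Csf2rb had signals of 2.1 untreated and 23 with IFNg in 1 probe set (at least 1.13-fold higher), and 2.1 and 0.9 in another. Its log2 ratio was 1.99 as a bound with the floor at the 25th percentile and 1.11 with a pseudocount of 16, so whether it passed 2-fold depends on the processing. Il5ra, the IL-5 chain of eosinophils and B cells, was at the floor.

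All 5 measured members of the IL-1 and IL-18 receptor family lay within 2-fold. Il1r1, the signalling receptor for IL-1, was 245.2 untreated and 300.4 with IFNg (log2 ratio 0.29), and the decoy Il1r2 was 24 and 24.5 (0.03). Il1rap, the accessory chain that IL-1, IL-33 and IL-36 receptors share, was 25 and 44.1 (0.82) in 1 probe set. Its others gave 0.04 (21.8 and 22.4) and a bound of -0.05 (21.1 and 12.1), so the higher reading was not shared. Il1rl2, the IL-36 receptor, was 63.2 and 46 (-0.46) by a probe set whose ID marks shared sequence, and 4.2 and 26.2 (at least 0.36) by another, which points the other way.

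The IL-18 receptor was seen in only 1 of its chains. Il18rap, the accessory chain, was 29.9 untreated and 31.9 with IFNg (log2 ratio 0.09), and 2.4 and 25.3 (at least 0.31) in a second probe set. Il18r1, the chain that binds IL-18, was at the floor with 8 and 1.3.

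Of the IL-17 receptor family, Il17ra, the chain common to most of its receptors, was 147.5 and 120 (log2 ratio -0.30), with -0.14 (61.2 and 55.7) in a second probe set. Its partner for IL-17A and IL-17F, Il17rc, was 249.9 and 326.2 (0.38), and -0.09 in a dim probe set (24.9 and 23.4). Il17rd, a family member known to restrain growth factor signalling, was 25.8 and 46.7 (0.86), with at least 0.03 in another probe set. Il17rb, the IL-25 chain, was at the floor.

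Il17re, the chain for the epithelial cytokine IL-17C, was 63.4 untreated and 30.8 with IFNg, 2.06-fold lower (log2 ratio -1.04). A second probe set read 25.9 and 6.9, at least 1.27-fold lower, and the third was at the floor on both arrays. The value was -0.76 when a pseudocount of 16 replaced the floor and -0.46 with probe sets averaged, so its place past 2-fold depends on the processing.

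In the IL-10 family, Il10rb, shared by receptors for IL-10, IL-22 and type III interferons, was 643.7 untreated and 515 with IFNg (log2 ratio -0.32). Its ligand-specific partners were at the floor on both arrays, Il10ra (for IL-10) in 3 probe sets (0.8 to 1.4) and Il22ra1 (for IL-22) at 3.6 and 2.1. Il20ra (12.1 and 14.7) and Il20rb (5.3 and 5.8), which pair with each other for IL-19, IL-20 and IL-24, were also at the floor. In all, 12 receptor genes were at the floor on both arrays, 30.0% of the 40 beside 29.9% of all genes. Their 17 probe sets had signals of 0.5 to 14.7.

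**Figure D3:**
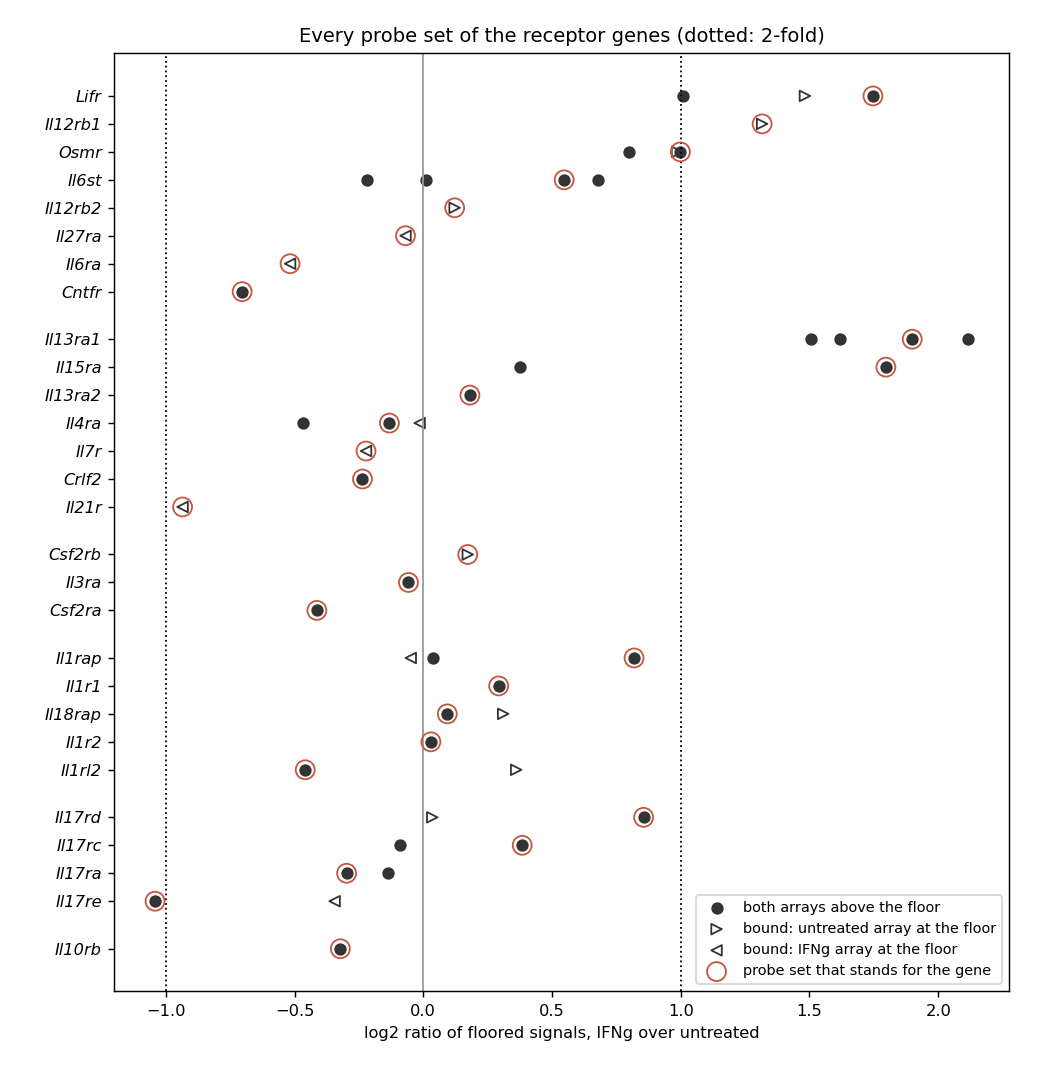
Log2 ratio (IFNg over untreated, x axis) of every receptor probe set above the floor on 1 or both arrays, 1 row per gene. Filled circles had both arrays above the floor, open triangles are bounds, and red rings mark the probe set that stands for the gene. Probe sets of Il13ra1 and Lifr all lie past the upper 2-fold line, those of Il6st span -0.22 to 0.68, and those of Il15ra and Il1rap lie far apart.

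Chains act in complexes, so 31 textbook complexes were drawn up, after the values had been seen, to show which had every chain above the floor. The floor is the pooled median signal and no call of detection. Il1rap, a chain of the IL-1 and IL-36 receptors, was close to it when untreated (25). For 9 complexes all chains were above the floor on both arrays. These were the receptors for IL-1, IL-36, LIF, oncostatin M, cardiotrophin (CT-1), CLCF1 with CNTF, IL-17A with IL-17F and IL-17C, and the type II receptor for IL-4 and IL-13. A further 6 had all chains above the floor on 1 or both arrays (TSLP, IL-3, GM-CSF, IL-6, IL-27 and IL-12), and 8 had a chain at the floor on both arrays. Another 8 include Il2rg, Il1rl1 or Il11ra1 and were not judged.

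**Figure D4:**
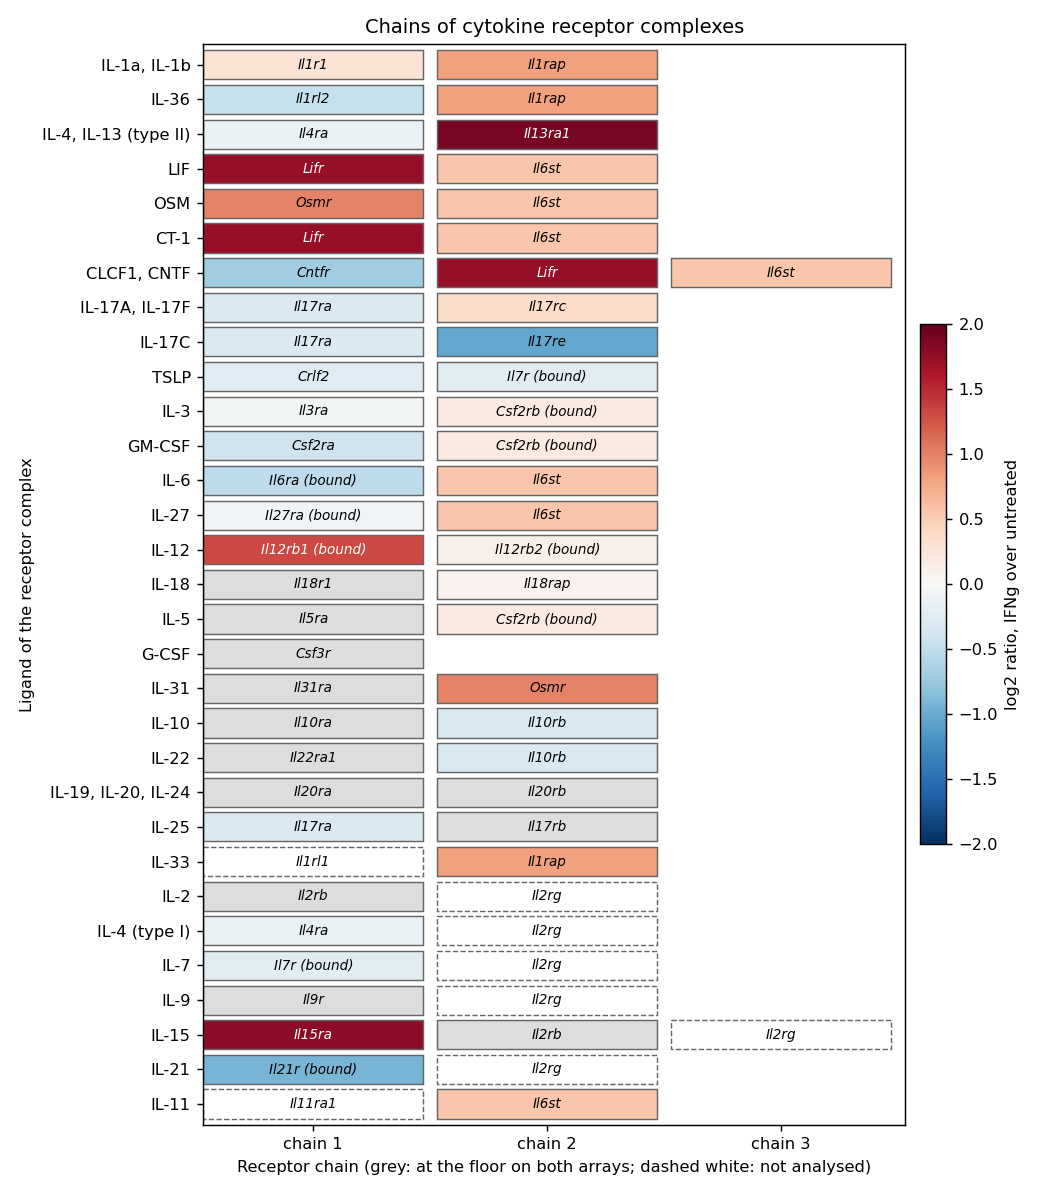
Chains of 31 receptor complexes (rows, by ligand), coloured by log2 ratio of IFNg over untreated (colour bar), grey where both arrays were at the floor and dashed white where it was not analysed. The complexes of LIF, cardiotrophin and CNTF share the red Lifr box, and IL-15 has a red Il15ra beside a grey Il2rb.

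The ligands of these receptors were set beside them. Of 34 ligand genes on the array 15 were above the floor, with a median log2 ratio of 0.03. With IFNg, 4 of them (26.7%, beside 8.81% of all genes) were at least 2-fold higher and none was called 2-fold lower (beside 4.48%). The 4 were Il6 (163.6 and 422.2, 2.58-fold), Il18 (70.8 and 156.3, 2.21-fold), Il15 (29.7 and 62.5, 2.10-fold) and Il7 (17.6 and 56.8, at least 2.78-fold). Il15 thus was higher together with Il15ra. Il6, Il18 and Il7 were higher while Il6ra, Il18r1 and Il7r were dim or at the floor. For 5 of the 15 ligands 1 array was at the floor and the bound was under 2-fold, which leaves the size of the difference unknown. Of these, Il20 (24.1 and 1.3), Il17a (27 and 10.7) and Osm were lower with IFNg, and Il11 and Il21 were higher.

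Of the ligands of the LIF and oncostatin M receptors, those above the floor on both arrays lay within 2-fold. Lif was 74 and 120 (log2 ratio 0.70), Clcf1 was 100.6 and 85.4 (-0.24, with -0.41 and 0.25 in its other probe sets), and Ctf1, the cardiotrophin gene, was 166.5 and 90.1 (-0.89). Osm was 28 and 2.3, at least 1.37-fold lower. The ligands Il4 and Il13 of the IL-13 receptor were at the floor on both arrays.

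The antagonists differed among themselves. Il18bp, which neutralises IL-18, was 18.5 and 365.9, at least 17.9-fold higher. Il1rn, the IL-1 receptor antagonist, was 2626.8 and 1890.6 by the probe set that stands for it (log2 ratio -0.47), and past 2-fold lower in both others, with 2794.2 and 1145.4 (-1.29) and 1336.5 and 643.3 (-1.06). All 3 Il1rn probe sets were lower with IFNg. Sigirr, an inhibitory IL-1 receptor relative, was 25.4 and 7.8 (at least 1.25-fold lower).

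Among 30 measured JAK-STAT transducers and feedback genes 5 were at least 2-fold higher (16.7%, beside 8.81% of all genes) and 1 was lower (3.33%, beside 4.48%), with a median of 0.13. Higher genes were the feedback inhibitor Socs1 (42.2 and 244.3, 5.79-fold), the kinases Jak2 (59.3 and 314.8, 5.31-fold) and Jak1 (325.3 and 913.4, 2.81-fold), the factor Stat2 (134.4 and 385.9, 2.87-fold) and the adaptor Stam (78.3 and 187.4, 2.39-fold). The other Jak1 probe sets gave log2 ratios of 1.05 (215.9 and 447.8) and -0.06 (49.6 and 47.6), so the dimmest did not share the difference. Stat5a, a factor downstream of IL-2, IL-7 and GM-CSF receptors, was 164.5 and 71.4 (2.30-fold lower), with -0.60 in a second probe set. Stat3, the main factor downstream of gp130, was 1744.3 and 1837.5 (log2 ratio 0.07), with 0.23 in a second bright probe set (911.5 and 1072.9). Its 2 dim probe sets disagreed, with bounds of at least 1.77 higher (10.9 and 69.7) and at least 0.82 lower (36.1 and 2) on the log2 scale. Stat6, the factor of IL-4 and IL-13, was 560.9 and 472.1 (-0.25), with 0.02 in a second probe set.

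Genes known to respond to IL-6 family cytokines and IL-1 were listed as well. Of 24 measured, 1 was at least 2-fold higher (4.17%, beside 8.81% of all genes) and none was 2-fold lower (beside 4.48%). Another 22 lay within 2-fold and 1, Arg1, was a bound under it, with a median of -0.07 for the list. With so few genes, these counts are no result about the list. The one past 2-fold was Ptgs2, a prostaglandin synthase (132.4 and 647.3, 4.89-fold). Steap4 was 912.9 and 479.6 (log2 ratio -0.93), with -0.76 in a second probe set. Socs3, the feedback inhibitor of gp130, was 1036.1 and 884.8 (log2 ratio -0.23), with -0.34 and 0.34 in its other probe sets. The acute-phase genes Saa3 (7945.2 and 6778.4, -0.23) and Lcn2 (1550.1 and 1719.1, 0.15) also lay within 2-fold.

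In the transducers of TIR and IL-17 receptors, 3 of 18 were at least 2-fold higher (16.7%, beside 8.81% of all genes), 1 was lower (5.56%, beside 4.48%) and the median was -0.05. The ubiquitin ligase Peli1 (38.2 and 115.1, 3.01-fold) and the TAK1-binding proteins Tab3 (20.7 and 61.9, 2.99-fold) and Tab2 (394.4 and 796.1, 2.02-fold) were higher. Ecsit, an adaptor of TRAF6, was 169.3 and 78.8 (2.15-fold lower). Myd88 was 589 and 681 (0.21). Tab2 had a second probe set at 1.71, while that of Peli1 was at 0.79.

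Of 9 genes for shedding and trafficking of receptors, 2 were at least 2-fold higher (22.2%, beside 8.81% of all genes). None was 2-fold lower (beside 4.48%), and the median was -0.29. Adam17, the protease that releases soluble IL-6 receptor, was 135.6 and 304.1 (2.24-fold), but its other probe sets gave 0.54 and 0.33. Erap1, an aminopeptidase of the endoplasmic reticulum, was 48.4 and 498.8 (10.3-fold). Among 13 further cytokine receptors the growth hormone receptor Ghr (377.8 and 785.8, 2.08-fold) and the TGF-beta receptor Tgfbr1 (77 and 168.2, 2.18-fold) were higher (15.4%, beside 8.81% of all genes) and Csf1r was lower (7.69%, beside 4.48%), with a median of -0.05. A bright Ghr probe set went the other way (371.2 and 320, -0.21). The Tgfbr1 reading rests on 1 probe set, since its others were at the floor on both arrays (11.5 and 0.8, 19.8 and 1).

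Markers of leukocytes, which carry many of the receptors at or near the floor, were in no case 2-fold higher with IFNg (beside 8.81% of all genes). Of 11 above the floor 3 were 2-fold lower (27.3%, beside 4.48% of all genes), with a median of -0.39: Csf1r (202.8 and 77.5, 2.62-fold), Fcer1g (46 and 10.6, at least 2.25-fold) and Laptm5 (40.9 and 8.7, just past 2-fold as a bound). Other Csf1r probe sets gave -0.56 and -0.28, and those of Laptm5 above the floor on both arrays gave -0.19 and -0.55. Of 9 measured RPE markers 3 were at least 2-fold lower (33.3%, beside 4.48% of all genes) and the median was -0.12. These were Ttr (89.4 and 29.4), Tyrp1 (53.1 and 21.7) and Rlbp1 (73.2 and 35.1). The other Ttr probe sets were lower only as bounds. Further Tyrp1 probe sets disagreed, with bounds of at least 1.45 lower (55.9 and 10) and at least 0.33 higher (17.7 and 25.7) on the log2 scale. None of the 9 fibroblast markers passed 2-fold, beside 8.81% of all genes higher and 4.48% lower. With so few genes, the shares past 2-fold in the marker lists and in the pathway lists above are no result about those lists, nor is a count of none. The part of these cell types in the receptor values was not tested.

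**Figure D5:**
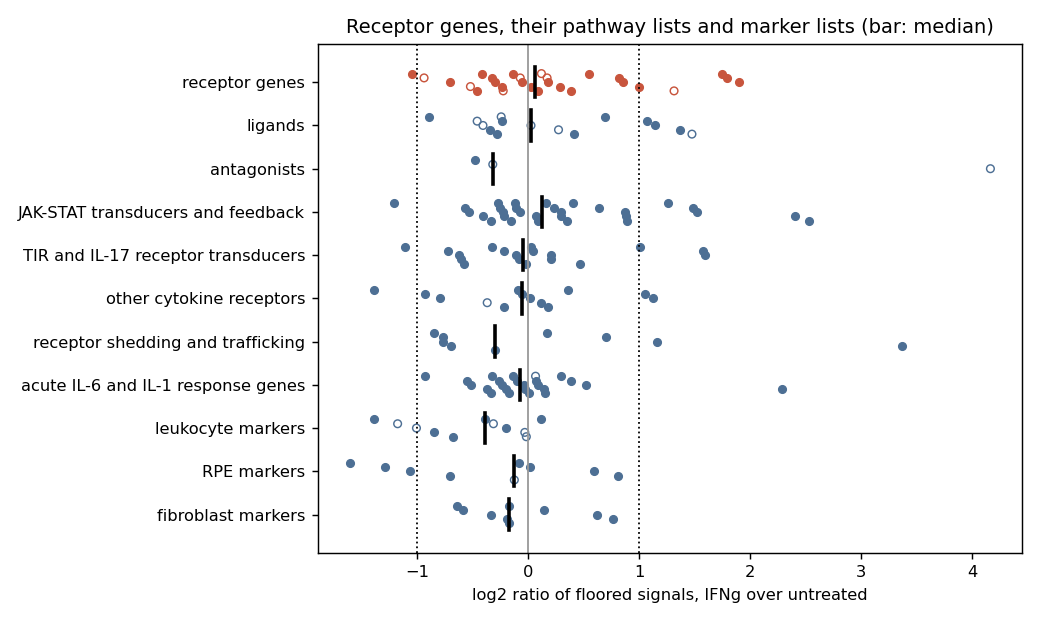
Log2 ratios (IFNg over untreated, x axis) of the 28 receptor genes and of the genes above the floor in 7 pathway lists and 3 marker lists (rows). Points are genes, open where 1 array was at the floor, bars are medians, dotted lines mark 2-fold. List medians lie between -0.39 (leukocyte markers) and 0.13 (JAK-STAT genes), and the point farthest right is Il18bp.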

How the data were processed

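Total RNA of the 2 cultures was amplified and labelled with biotin, per the labels' protocols. The deposited table holds a linear intensity per probe set, between 0.1 and 14895.6, with no header. The deposited arrays had 2% trimmed means of 100.001 each. How the authors summarised probes, corrected background or called detection is not stated in the labels. The 64 control probe sets were left out, the remaining 45037 were scaled to a common trimmed mean, floored at the pooled median and log2 transformed. Printed signals are as deposited. Genes were named from the platform annotation, which can be old, through the 34945 probe sets naming 1 gene, and were represented by the brightest of these on average. Every receptor was named, and in the other lists genes past 2-fold and those tied to a receptor described. Receptors and lists were chosen with earlier results of these data known. Protein sequences were not used here. The procedure was tested on simulated data with effects well past 2-fold in genes well above the floor. Calls near 2-fold or near the floor were not covered by it. Analyses used Python 3.11.15, numpy 2.4.6, pandas 2.3.3, statsmodels 0.14.6 and matplotlib 3.10.9.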

Additional observations from a re-analysis of the deposited data

How the results depend on the processing

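The alternatives were 3 other scalings, a loess correction, 2 other floors, a pseudocount of 16, averaged probe sets, exclusion of probe sets with a shared-sequence ID, and thresholds of 1.5-fold and 3-fold. The receptors at least 2-fold higher and lower numbered 8 and 4 of 37 with the floor lowered to the 25th percentile of all signals (5.80), where 13.6% and 12.4% of all genes passed. They numbered 2 and 0 of 13 with a floor at the 75th percentile (7.39% and 2.10% of all genes). At 1.5-fold 7 and 3 of 28 passed (beside 17.9% and 18.7% of all genes), and at 3-fold 3 and 0 (10.7% and none, beside 2.63% and 0.463%). With probe sets averaged, 4 were higher (14.3%, beside 4.63% of all genes) and 0 lower (beside 2.80%). Elsewhere 4 or 5 were higher, beside 7.60% to 9.33% of all genes, and 1 lower, beside 4.39% to 5.88%. The share of receptors that were higher was above that of all genes in each of these settings, on 2 to 8 genes, with no test. The settings reuse the same 2 arrays and largely the same genes, so they do not count as separate evidence. The receptor median log2 ratio was 0.29 with the floor at the 75th percentile, where 13 receptors were left. The 28 receptors of the main setting gave 234 values under these scalings, floors and probe-set choices, where still measured. Of these, 224 stayed on the same side of 2-fold, 3 fell short of it (Il15ra, and Il17re in 2 settings), 7 newly passed it (Osmr, Il7r, Il21r and Csf2rb) and none past 2-fold changed sign. Receptors measured only with the lowered floor count among the 37 but not in the 234. With the floor at the 75th percentile Il12rb1 (signals up to 50.8) and Il17re (up to 63.4) were no longer measured. Floor-dependent values of dim receptors are open to unknown background. The restriction of the median to receptors above the floor on both arrays was added after the data were seen. No paired analysis was possible because each group has 1 array.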
